A study of Mus musculus with 18 samples.

Results

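The effect of collagen on a piezoelectric bone membrane in the absence of ultrasound was examined in 6 of the 18 RNA sequencing libraries of the study. All libraries are labelled MC3T3-E1, an immortal line of mouse pre-osteoblasts that makes bone matrix when it is induced to differentiate. The cells were seeded at 20000 per well on sterilised membrane discs 15 mm across and grown for 5 days. The comparison set 3 libraries from PLLA/ZnO@Col membranes (replicates 1 to 3) against 3 libraries from PLLA/ZnO membranes (replicates 1 to 3), all labelled -US, and the members were chosen by these labels alone. PLLA is poly-L-lactic acid, a degradable and piezoelectric polymer, ZnO is zinc oxide, and Col is taken here as collagen from the abbreviation. Both groups therefore share the polymer and the zinc oxide, and neither received ultrasound. The other 12 libraries came from PLLA -US and from the 3 membranes labelled +US, which received ultrasound for 10 min each day. They entered the fit so that all 6 groups shared 1 estimate of the spread. The labels do not say whether the 3 libraries of a group came from separate cultures, so the p-values measure the spread between these libraries, which may be technical.

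Collagen is read by cells through integrins with a collagen-binding domain and through the discoidin domain receptors DDR1 and DDR2, and it can be taken up by the endocytic receptor MRC2. Integrin engagement signals through focal adhesion kinase to MAP kinases and to the actin cytoskeleton, whose tension is read by the co-activators YAP and TAZ. Type I interferons form a separate, cell-autonomous defence programme: their receptor signals to transcription factors that bind the interferon-stimulated response element in the promoters of antiviral genes.

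Libraries of the collagen group differed from one another before any comparison between groups. PLLA/ZnO@Col -US replicates 1 and 3 held almost no Y-linked transcripts. The summed FPKM (fragment density corrected for gene length and sequencing depth) of Ddx3y, Eif2s3y, Kdm5d and Uty was 0.185 and 0.356 in them, 21.4 in replicate 2, and between 12.9 and 21.7 in PLLA/ZnO -US. PLLA/ZnO@Col +US replicate 1, at 0.386, was the only other library of the 18 under 1 FPKM. The same 2 libraries had Thy1, a mesenchymal surface glycoprotein, at 0.0709 and 0.128 FPKM, against 2.55 in replicate 2 and 4.03 to 4.70 in PLLA/ZnO -US. The correlation of log2 depth-scaled counts between collagen replicates was 0.940 for replicates 1 and 2, 0.962 for 1 and 3 and 0.894 for 2 and 3, while the PLLA/ZnO -US pairs lay between 0.972 and 0.981. The labels give the same cell line for all libraries and do not say whether they came from 1 cell stock. In replicates 1 and 3 a difference of cell stock or clone and the effect of collagen cannot be told apart. Results are therefore given with all 3 collagen libraries and, where this bears on the value, from a fit that left out the 3 libraries with few Y-linked transcripts. That fit left replicate 2 as the only collagen library without ultrasound, and it is called the fit with replicate 2 alone. It also dropped PLLA/ZnO@Col +US replicate 1, and its spread came from the groups that still had more than 1 library. Total counts of the 6 libraries ran from 48307580 to 55879517. The pre-osteoblast and mesenchymal markers summed to between 3046 and 5045 FPKM in the 6 libraries, whereas late osteoblast markers (Alpl, Bglap, Ibsp, Sp7 and Dmp1) summed to at most 3.25, so the cells were not in a late, mineralising state by these markers. Endothelial and epithelial markers summed to at most 0.127 and 0.175 FPKM.

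The promoters of 3 interferon response genes are printed because this list had the highest share of members with a low p among the lists with at least 10 tested members. Each window runs from 250 bases before to 50 bases after the annotated start in RefSeq on GRCm38.p6, 5′ to 3′ on the gene's strand. Capitals mark matches to the core of the interferon-stimulated response element, searched as GAAANNGAAA on both strands, with overlapping matches joined. Ifit3 is at chr19:34583279-34583578 on the plus strand, Bst2 at chr8:71537423-71537722 on the minus strand and Isg15 at chr4:156200769-156201068 on the minus strand.
Ifit3: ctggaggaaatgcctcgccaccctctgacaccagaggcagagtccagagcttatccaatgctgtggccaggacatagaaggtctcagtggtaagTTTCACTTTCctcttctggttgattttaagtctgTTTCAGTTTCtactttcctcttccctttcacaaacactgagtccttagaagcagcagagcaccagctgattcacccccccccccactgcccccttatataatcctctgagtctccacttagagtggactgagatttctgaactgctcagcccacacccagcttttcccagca
Bst2: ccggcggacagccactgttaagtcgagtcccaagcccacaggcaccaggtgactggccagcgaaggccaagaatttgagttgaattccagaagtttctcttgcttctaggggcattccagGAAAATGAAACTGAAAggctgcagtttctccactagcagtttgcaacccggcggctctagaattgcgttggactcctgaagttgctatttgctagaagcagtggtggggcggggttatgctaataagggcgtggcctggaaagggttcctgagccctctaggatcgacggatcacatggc
Isg15: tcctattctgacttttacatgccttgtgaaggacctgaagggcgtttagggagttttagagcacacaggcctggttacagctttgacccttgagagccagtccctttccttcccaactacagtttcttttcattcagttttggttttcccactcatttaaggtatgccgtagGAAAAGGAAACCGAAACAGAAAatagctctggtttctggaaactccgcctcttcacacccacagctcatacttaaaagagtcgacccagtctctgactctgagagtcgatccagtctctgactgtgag
Ifit3 and Bst2 each held 2 matches and Isg15 held 3. Of the 30 tested interferon response genes with a window, 14 held the core (46.7%), against 315 of 8540 tested genes with a window (3.69%). Over all 32851 windows the share was 3.44%. The list was drawn up from known interferon response genes, so its share describes the list and says nothing about collagen. Of the members described below, Oasl2, Ifi44, H2-K1, Psmb8 and Ifi35 held 0 matches. A match describes the letters and does not show that a factor binds there.

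No gene of the 11936 tested passed an adjusted p of 0.05 between PLLA/ZnO@Col -US and PLLA/ZnO -US (0% called, edgeR quasi-likelihood test with Benjamini-Hochberg adjustment). The smallest adjusted p was 0.0673. The lowest p-values were nevertheless more frequent than their nominal share: 1544 genes (12.9%) had an unadjusted p under 0.05, of which 927 were higher on collagen (7.77% of genes tested) and 617 lower (5.17%), where 597 in both directions together is 5% of the genes. DESeq2 on the same genes called 407 (3.41%), 256 higher (2.14%) and 151 lower (1.27%), so the count depends on the tool. It also depends on single libraries: without collagen replicate 2, edgeR called 1039 genes (8.7%), 657 of them higher (5.5%), without replicate 3 it called 18 (0.151%), and without replicate 1 it called 0. In the fit with replicate 2 alone, 166 genes were called (1.39%), 67 higher (0.561%) and 99 lower (0.829%). When the same 3 libraries were left out and 4 groups entered the fit, an alternative added after seeing the data, 11 were called (0.0922%), 4 higher (0.0335%) and 7 lower (0.0586%). The 3 collagen libraries lay all above the 3 PLLA/ZnO libraries for 607 genes (5.09%) and all below for 753 genes (6.31%). With 3 libraries a group some genes separate in this way by chance alone, and how many was not estimated. The genes described next did not pass the main threshold unless a test is named. They are the 12 in each direction with the smallest p-values among genes that met 3 conditions, together with members of pathway lists. The groups did not overlap, the higher group averaged at least 2 FPKM, and clone, Rik, Gm and pseudogene symbols were left out. The lists were chosen with earlier results of these data known.

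Interferon response genes had lower values on collagen in most cases. Of 37 tested members, 35 had a negative log2 fold change and 2 a positive one, with a median of -0.71. Over all genes tested 45% were negative and 55% positive, and the median was 0.04. In bulk RNA, fewer cells of a type and less RNA per cell cannot be told apart. An unadjusted p under 0.05 was reached by 23 members, all lower (5.17% of all genes, lower). All 3 collagen libraries lay below all 3 PLLA/ZnO libraries for 24 members (6.31% of all genes). None passed the adjusted threshold in edgeR, while DESeq2 called 15 members, all lower (background for lower genes 1.27%). In the fit with replicate 2 alone, 35 of 37 were again negative (51.5% of all genes), the median was -0.93 and edgeR called 8, all lower (background 0.829%), but 0 were called with 4 groups in that fit. Without replicate 2 the median was -0.76 and 13 were called, all lower (background 3.2%). Of the list's other members, 8 were too low to test (Cmpk2, Ifih1, Mx1, Mx2, Oas2, Oas3, Oasl1 and Rsad2) and Rigi stands in the table under its older symbol Ddx58.

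Among the antiviral effectors, Ifit3, which binds viral RNA together with its relatives, is on chromosome 19 at 34583531 to 34588731. It was at 15.0, 5.30 and 8.36 FPKM on PLLA/ZnO and at 1.63, 2.10 and 3.13 on collagen. The groups did not overlap, although the PLLA/ZnO libraries themselves spread widely (log2 fold change -2.03 ± 0.40 SE, adjusted p = 0.0690 in edgeR). Its near-identical neighbour Ifit3b was at 4.00, 1.66 and 1.91 FPKM against 0.200, 0.675 and 0.503 (-2.42 ± 0.48). How reads shared by the pair were counted is not given in the sources used here, so the split between the 2 genes is uncertain. Oasl2, an oligoadenylate synthetase-like protein on chromosome 5, was at 4.19, 2.65 and 3.95 FPKM against 0.996, 1.83 and 1.39 (-1.33 ± 0.26). Bst2, the tetherin that holds budding virions at the cell surface, was at 15.6, 12.9 and 14.1 FPKM on PLLA/ZnO. On collagen it was at 3.24, 5.42 and 5.43 (-1.57 ± 0.32, adjusted p = 0.0728). Zbp1, a sensor of Z-form nucleic acid, was even on PLLA/ZnO, at 5.63, 5.33 and 5.40 FPKM, and was at 0.620, 1.56 and 1.13 on collagen (-2.28 ± 0.49). Ifi44 was at 1.71, 1.80 and 1.56 against 0.262, 0.660 and 0.351 (-1.96 ± 0.50), and the ubiquitin-like modifier Isg15 at 14.3, 8.46 and 10.8 against 2.21, 5.44 and 7.13 (-1.16 ± 0.36). Bst2, Zbp1, Ifi44 and Isg15 were chosen for naming after their values were seen.

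Other members of the response were more mixed. The class I antigen heavy chain H2-K1 was at 44.2, 39.5 and 51.0 FPKM against 10.97, 27.2 and 20.2 (-1.19 ± 0.34), whereas its light chain B2m was at 452, 551 and 456 against 346, 466 and 493 and overlapped (-0.13 ± 0.14). The 2 members with a positive fold change were Psmb8, an immunoproteasome subunit, and Ifi35. Psmb8 was at 5.10, 1.49 and 10.6 FPKM on collagen and 4.96 to 5.91 on PLLA/ZnO. Ifi35 was at 7.70, 4.94 and 17.3 on collagen and 8.71 to 10.6 on PLLA/ZnO. In both genes replicate 3 was the highest of the 6 libraries and replicate 2 the lowest. Sp140 and Sp100, neighbouring nuclear body genes on chromosome 1 that interferon is known to induce, were at 8.75, 8.77 and 9.16 against 3.46, 5.03 and 4.601 FPKM (-1.0005 ± 0.16) and at 3.85, 4.15 and 3.47 against 2.01, 2.54 and 2.21 (-0.73 ± 0.13). The Sp genes are close relatives, and reads they share could move between them.

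**Figure D1:**
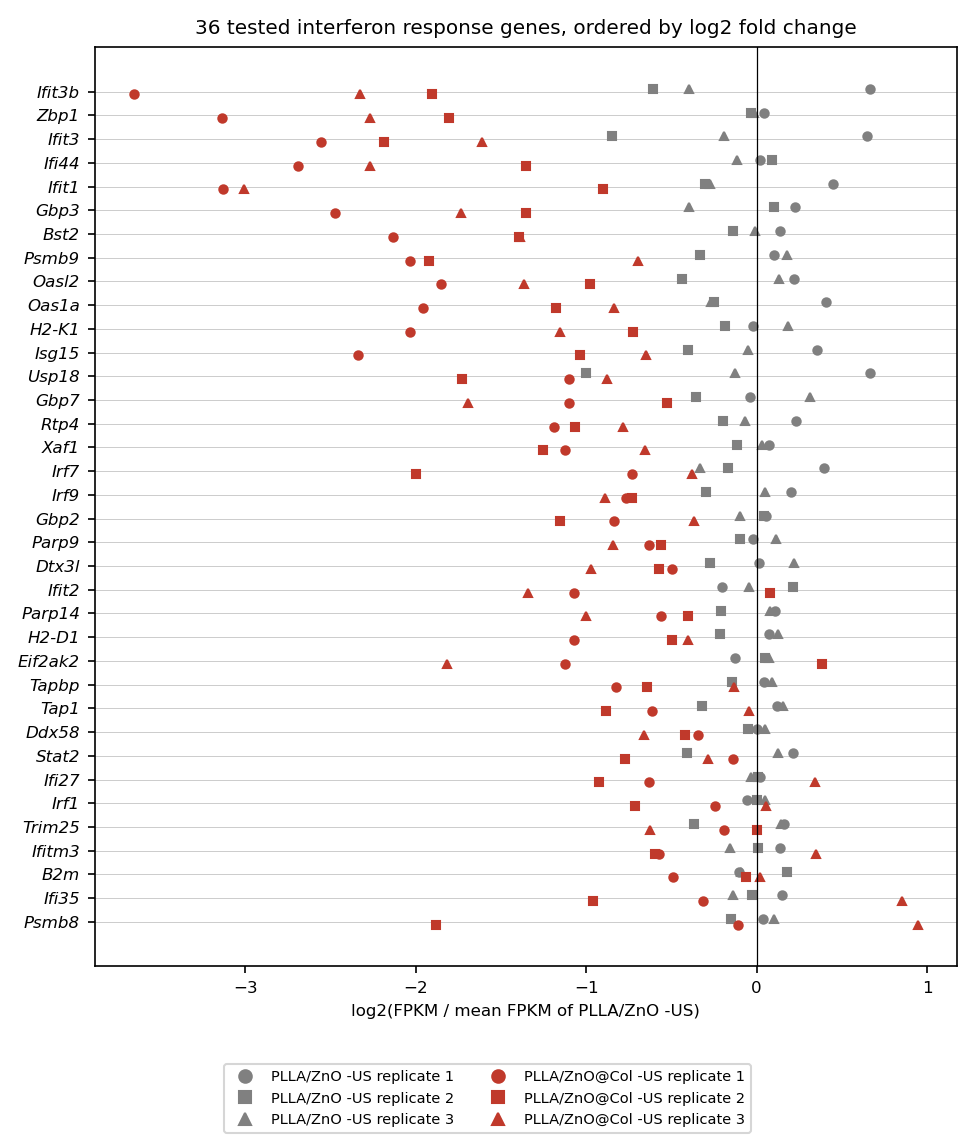
Each point is 1 library's FPKM for 1 of 36 interferon response genes, as log2 of its ratio to the mean of the 3 PLLA/ZnO -US libraries (grey, PLLA/ZnO -US; red, PLLA/ZnO@Col -US; the symbol gives the replicate). The red points all lie left of the grey ones for 23 of the genes drawn, and collagen replicate 2 (red squares) lies left of 0 in most rows, with Ifit2 and Eif2ak2 as exceptions.

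Chemokines and inflammatory genes were also mostly lower, but less evenly over the collagen libraries. Of 22 tested, 16 were lower (45% of all genes) and 6 higher, and the median was -0.90. An unadjusted p under 0.05 was found for 8 lower and 2 higher members (5.17% and 7.77% of all genes). Cxcl12, the stromal chemokine that retains CXCR4-bearing cells, was at 52.3, 51.6 and 56.0 FPKM against 29.8, 30.9 and 27.9. Both groups were tight and well apart (-0.82 ± 0.17, adjusted p = 0.0719 in edgeR). Ccl5, which attracts T cells and monocytes, was at 45.3, 39.9 and 37.5 against 1.67, 11.8 and 2.18 (-2.96 ± 0.76), and the neutrophil chemokine Cxcl5 at 53.6, 79.0 and 43.5 against 4.09, 26.4 and 7.64 (-2.20 ± 0.57). In both, collagen replicate 2 lay between the other collagen replicates and PLLA/ZnO. The acute-phase protein Saa3 followed the same order, at 123, 162 and 78.2 against 2.95, 75.8 and 10.7 FPKM. In the fit with replicate 2 alone the list median was -0.19, and with replicates 1 and 3 alone it was -1.30, so most of the list's difference was in the 2 libraries with few Y-linked transcripts. With ultrasound 14 were lower and 8 higher, and the median was -0.090. Alox5ap, which presents arachidonic acid to 5-lipoxygenase for leukotriene synthesis, is on chromosome 5 at 149264767 to 149288153. It differed in all 3, at 3.94, 2.74 and 3.22 against 0.966, 0.856 and 1.31 FPKM (-1.62 ± 0.25, adjusted p = 0.0673). Macrophage and osteoclast markers summed to 32.1, 33.6 and 15.0 FPKM on PLLA/ZnO and to 36.8, 23.2 and 40.7 on collagen, and their part in these differences was not tested.

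The remaining genes with the smallest p-values on the lower side had varied roles. Bmp4, the bone morphogenetic protein that drives osteoblast commitment, is on chromosome 14 at 46383520 to 46390669. It was at 8.46, 7.27 and 8.08 FPKM on PLLA/ZnO and at 1.04, 2.63 and 1.10 on collagen, so every collagen library was below every PLLA/ZnO library (-2.30 ± 0.46, adjusted p = 0.0703). Scara5, a scavenger receptor that takes up ferritin, was at 21.9, 14.5 and 24.5 against 7.601, 8.12 and 8.12 (-1.32 ± 0.24). The collagen values were nearly identical, and the spread was on PLLA/ZnO. Tmem100, a BMP-responsive membrane protein, was at 4.19, 3.93 and 4.50 against 1.23, 2.13 and 1.06 (-1.48 ± 0.29), and Apol6 at 2.81, 2.04 and 3.12 against 0.660, 1.19 and 0.687 (-1.62 ± 0.28). The serine protease inhibitor Serpina3g was at 18.8, 14.6 and 16.8 against 6.08, 6.83 and 7.82 (-1.24 ± 0.23), with the caution that the Serpina3 cluster holds close copies. Pdk1, the kinase that shuts off pyruvate dehydrogenase in hypoxia, was at 13.3, 15.1 and 18.6 against 6.99, 11.1 and 7.19 (-0.87 ± 0.18).

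On the higher side the first gene was Cyp1a1, the monooxygenase that the aryl hydrocarbon receptor induces, on chromosome 9 at 57687928 to 57703824. It was at 2.36, 2.44 and 2.78 FPKM on PLLA/ZnO and at 12.7, 5.49 and 11.7 on collagen (2.02 ± 0.34, adjusted p = 0.0673). Replicate 2 was the lowest collagen library and still above all PLLA/ZnO libraries. Cyp1a1 was the only one of 8 tested genes of the receptor's list with an unadjusted p under 0.05, and 4 of the 8 were higher. Tgfb1, the latent growth factor that bone matrix stores, is on chromosome 7 and was at 7.005, 6.71 and 6.34 against 11.2, 11.6 and 14.1 (0.91 ± 0.17, adjusted p = 0.0673). Etv5, a transcription factor downstream of FGF and ERK signalling, was at 5.56, 5.64 and 5.39 against 10.1, 10.0 and 7.40 (0.76 ± 0.13). Hmga2, a chromatin protein of proliferating mesenchyme, was the most abundant of the 12, at 63.5, 64.2 and 51.1 FPKM against 138, 185 and 85.6 (1.22 ± 0.24). Gpnmb, the glycoprotein osteoactivin that osteoblasts and macrophages make, was at 8.02, 7.39 and 8.53 against 11.9, 33.0 and 16.3 (1.37 ± 0.26). In these last 2 genes replicate 2 was the highest collagen library, the opposite of its place for Cyp1a1.

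Smaller and tighter differences made up the rest. Ank, the transporter that exports the mineralisation inhibitor pyrophosphate, was at 16.2, 15.2 and 16.3 FPKM against 27.9, 28.0 and 18.7 (0.68 ± 0.14). The creatine transporter Slc6a8 was at 17.8, 13.5 and 17.0 against 23.7, 26.0 and 28.0 (0.72 ± 0.14). The ferrireductase Steap3, which serves transferrin-bound iron uptake, was at 1.62, 1.32 and 1.55 against 2.39, 3.58 and 2.39 (0.92 ± 0.18). C2cd2l, a lipid transfer protein, was at 1.84, 1.59 and 1.68 against 2.64, 2.65 and 2.74 (0.68 ± 0.12). Gnpda1, Ankrd13b and Vac14 had log2 fold changes of 0.78, 0.61 and 0.69. The 24 leading genes were chosen by their p-values in this same comparison, so their counts under other settings are a description and no separate test. DESeq2 called all 24, the least of them at an adjusted p of 0.00146 (3.41% of all genes called). In edgeR 24 were called without collagen replicate 2 (8.7% of all genes), 5 without replicate 3 (0.151%), 0 without replicate 1 (0%), 9 in the fit with replicate 2 alone (1.39%) and 2 of the 24 in that fit with 4 groups (0.0922%).

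**Figure D2:**
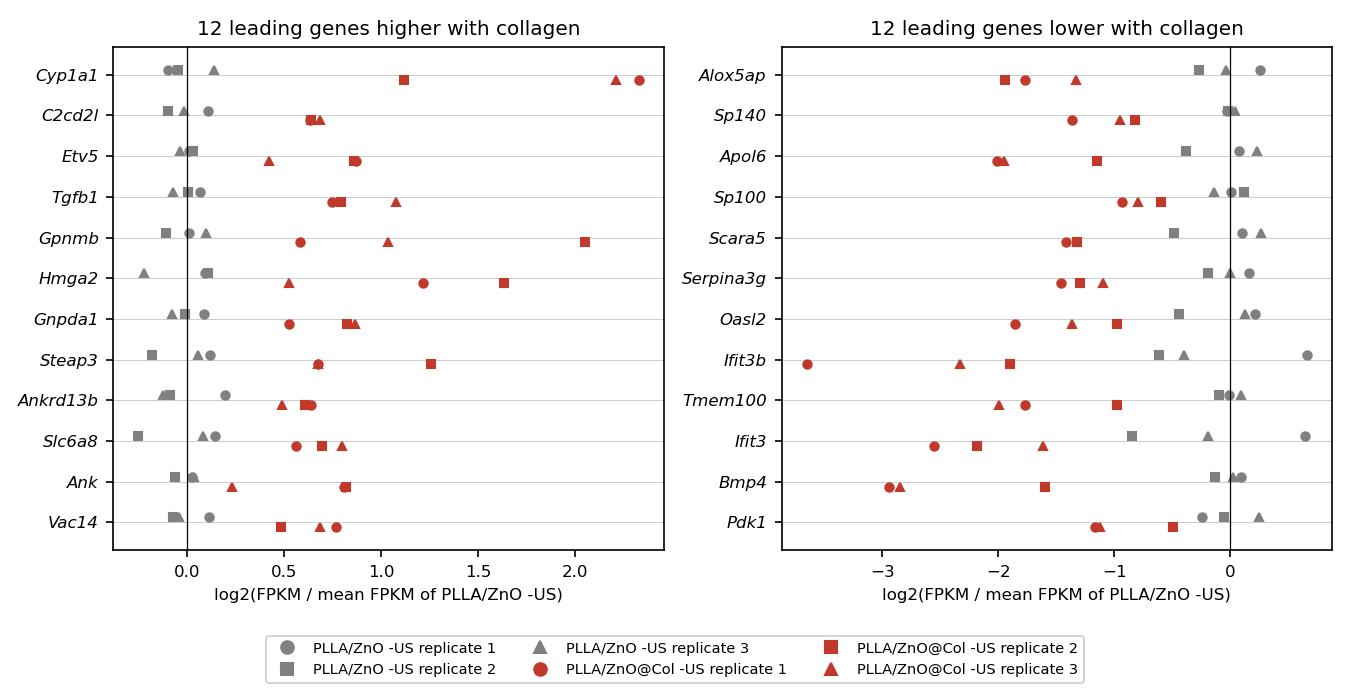
Each point is 1 library's FPKM relative to the mean of PLLA/ZnO -US, on a log2 scale, for the 12 leading genes in each direction. These had the smallest p-values among genes whose groups did not overlap and whose higher group averaged at least 2 FPKM. Clone, Rik, Gm and pseudogene symbols were left out. Grey is PLLA/ZnO -US, red is PLLA/ZnO@Col -US, and the symbol gives the replicate. The groups are apart in every row because the choice of genes required it; what the plot adds is the place of collagen replicate 2, lowest for Cyp1a1 and highest for Gpnmb and Hmga2.

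Genes for the collagen network itself did not move as 1 group. Of 27 tested fibrillar and associated matrix genes, 17 were lower (45% of all genes) and 10 higher, with a median of -0.23. At an unadjusted p under 0.05 there were 6 lower and 1 higher (5.17% and 7.77% of all genes). In the fit with replicate 2 alone 18 were lower (median -0.37), while with ultrasound 19 were higher and 8 lower (median 0.20). The chains of the most abundant bone collagen overlapped: Col1a1 was at 866, 804 and 1165 FPKM against 906, 500 and 910 (-0.25 ± 0.22), and Col1a2 at 449, 377 and 579 against 621, 266 and 623 (0.15 ± 0.29). Replicate 2 was the lowest library of the 6 for both chains. Collagen VI, a beaded filament collagen around cells, was lower in both chains tested here: Col6a1 was at 259, 182 and 326 against 150, 128 and 153 FPKM, and Col6a2 at 83.7, 54.0 and 105 against 45.3, 41.4 and 49.1 (each -0.80 ± 0.21). Tnn, the matricellular protein tenascin-W of bone-forming tissue, was at 1.68, 1.17 and 1.59 against 0.193, 0.344 and 0.224 (-2.52 ± 0.49, adjusted p = 0.0684). Nid2, a basement membrane linker, was at 32.5, 21.6 and 39.5 against 20.5, 15.5 and 15.6 (-0.83 ± 0.22). Postn, the matricellular protein periostin, split the collagen group, at 10.6 and 5.97 FPKM in replicates 1 and 3 and 32.4 in replicate 2, which lay within the 27.1 to 40.3 of PLLA/ZnO.

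The processing enzymes and proteases were likewise divided. Of 25 collagen processing and crosslinking genes, 15 were lower (45% of all genes) and 10 higher. An unadjusted p under 0.05 was found for 4 lower members (5.17% of all genes, lower). Without replicate 2 the split was 14 higher and 11 lower, with replicate 2 alone 6 higher and 19 lower, and with ultrasound 20 higher and 5 lower. Adamts2, the procollagen N-proteinase, was at 5.40, 3.42 and 6.15 FPKM against 1.76, 2.62 and 1.56 (-1.31 ± 0.32). Among 23 proteases and inhibitors, 12 were lower and 11 higher, against 16 lower without replicate 2 and 9 lower with replicate 2 alone. The membrane collagenase Mmp14 was at 51.7, 43.3 and 57.1 against 66.0, 66.6 and 63.7 (0.40 ± 0.13). Timp2, the inhibitor that also helps Mmp14 activate progelatinase, was higher with it, at 279, 248 and 310 against 443, 382 and 365 (0.54 ± 0.14). The gelatinase Mmp9 was lower, at 14.6, 13.1 and 15.8 against 8.19, 8.06 and 10.2 (-0.68 ± 0.20). The collagenase Mmp13 went in opposite directions within the collagen group, at 0.146 and 0.220 FPKM in replicates 1 and 3 and 16.0 in replicate 2, against 1.60 to 3.13 on PLLA/ZnO.

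Of the receptors for collagen, 7 of 12 listed genes were tested. Itga11, the integrin subunit that binds fibrillar collagen on mesenchymal cells, was at 28.6, 16.1 and 39.2 FPKM against 15.4, 14.0 and 11.9. The groups did not overlap, although PLLA/ZnO replicate 2 was close to collagen replicate 1 (-0.99 ± 0.26, adjusted p = 0.123). It was the only receptor with an unadjusted p under 0.05. Ddr1 was at 14.5, 10.8 and 15.4 against 13.7, 13.2 and 14.6 (0.06 ± 0.15), and Ddr2 at 24.9, 25.0 and 29.2 against 19.4, 38.1 and 11.7 (-0.18 ± 0.38). Mrc2, the uptake receptor, was at 55.9, 37.3 and 65.0 against 66.1, 67.6 and 58.4 (0.31 ± 0.17). The subunits Itga1 and Itga2 were too low to test.

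**Figure D3:**
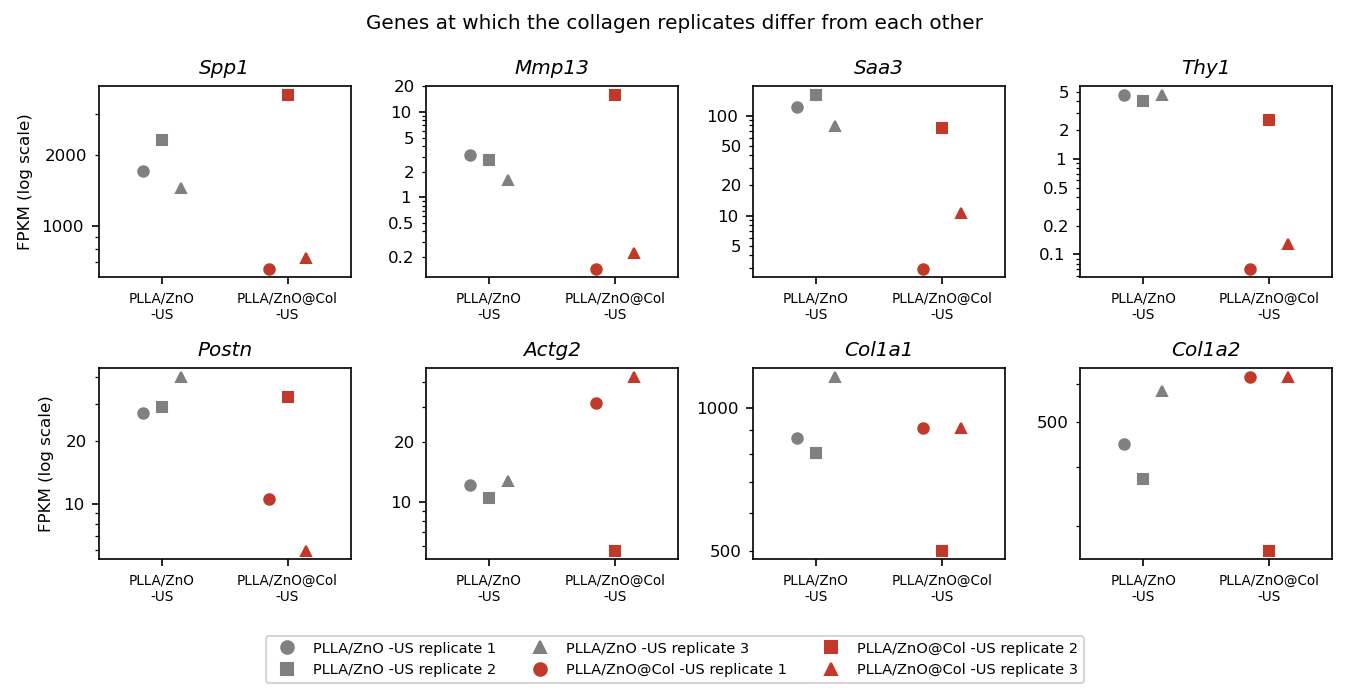
FPKM on a log axis in the 6 libraries for 8 genes, chosen after their values were seen, at which the collagen replicates differed from each other or that encode type I collagen (grey, PLLA/ZnO -US; red, PLLA/ZnO@Col -US; the symbol gives the replicate). Replicate 2 is the highest collagen library for Spp1, Mmp13, Saa3, Thy1 and Postn and the lowest for Actg2, Col1a1 and Col1a2.

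Signalling targets that respond within minutes to growth factors or adhesion were more often higher on collagen. Of 28 immediate early genes tested, 21 were higher (55% of all genes) and 7 lower, with a median of 0.29. At an unadjusted p under 0.05 there were 9 higher and 0 lower (7.77% and 5.17% of all genes). The AP-1 subunit Jun was at 35.7, 35.0 and 39.0 FPKM against 51.3, 43.4 and 56.2 (0.50 ± 0.13). Egr1, an ERK-induced transcription factor, was at 26.4, 23.8 and 26.0 against 36.1, 55.7 and 56.2 (0.98 ± 0.27), and the ERK phosphatase Dusp5 at 7.08, 8.61 and 7.73 against 12.4, 15.0 and 12.4 (0.79 ± 0.21). All 3 genes separated the groups, and the list median was 0.27 in the fit with replicate 2 alone and 0.22 without replicate 2. Among 24 growth factor genes 16 were higher (55% of all genes) and 8 lower, with a median of 0.23. An unadjusted p under 0.05 was found for 8 higher and 2 lower (7.77% and 5.17% of all genes). Without replicate 2 the split was 12 and 12 with a median of 0.012, and with replicate 2 alone 15 were higher and the median was 0.43. Pdgfb, a mitogen of mesenchymal cells, was at 1.53, 1.42 and 1.72 against 2.71, 2.24 and 2.39 (0.69 ± 0.16).

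YAP and TAZ targets were divided, with 11 of 20 higher and 9 lower. Without replicate 2 the split was 8 higher and 12 lower, and with replicate 2 alone 14 higher and 6 lower. Ccn2, connective tissue growth factor, was at 3.71, 4.50 and 3.20 FPKM against 16.1, 4.599 and 9.23 (1.44 ± 0.33, adjusted p = 0.0956), and Ccn1 at 110, 133 and 112 against 194, 135 and 262 (0.78 ± 0.29). For both genes collagen replicate 2 was barely above the highest PLLA/ZnO library. The smooth muscle actin Actg2 was at 31.3 and 42.7 in collagen replicates 1 and 3, at 5.67 in replicate 2 and at 10.5 to 12.7 on PLLA/ZnO, so its direction with all 3 was set by the 2 libraries with few Y-linked transcripts. The genes of ER stress and ATF4, which turn on amino acid and folate supply, showed the same dependence. Of 24, 17 were higher (55% of all genes), with a median of 0.28. Among these, 9 had an unadjusted p under 0.05 (7.77% of all genes, higher). In the fit with replicate 2 alone, however, 17 were lower and the median was -0.07. Shmt2, the mitochondrial serine hydroxymethyltransferase, was at 101, 90.2 and 80.6 FPKM against 161, 89.7 and 221 (0.84 ± 0.25). Mthfd2, its partner in the mitochondrial folate pathway, was at 16.1, 17.4 and 13.9 against 20.6, 17.9 and 22.5 (0.40 ± 0.12).

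Wnt pathway genes were mostly lower: 15 of 19 tested (45% of all genes), with a median of -0.45. At an unadjusted p under 0.05 there were 8 lower and 1 higher (5.17% and 7.77% of all genes). Without replicate 2 the median was -0.55, with 6 lower and 1 higher called (3.2% and 5.5% of all genes). With replicate 2 alone it was -0.23 with 0 called, and with ultrasound 9 were higher and 10 lower (median -0.034), none at an unadjusted p under 0.05. Axin2, a feedback inhibitor that reports on beta-catenin activity, was at 1.53, 1.08 and 1.93 FPKM against 0.778, 0.826 and 0.5001 (-1.08 ± 0.27). The secreted Wnt modulator Sfrp2 was at 2.52, 1.59 and 2.79 against 0.137, 0.806 and 0.246 (-2.51 ± 0.65). Lef1, a DNA-binding partner of beta-catenin, was the exception, at 0.674, 0.566 and 0.613 against 2.21, 1.02 and 0.890 (1.20 ± 0.31). The BMP and TGF-beta list, which holds both Bmp4 and Tgfb1 described above, had 13 of 29 higher with all 3 collagen libraries. Without replicate 2 it had 23 of 29 lower, with a median of -0.41 and 4 lower and 1 higher called (3.2% and 5.5% of all genes). With replicate 2 alone 18 were higher and the median was 0.25. Tgfbi, a matrix protein that TGF-beta induces, was at 14.4, 12.7 and 15.4 against 8.19, 10.8 and 9.49 (-0.55 ± 0.16).

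Osteoblast differentiation genes were divided, 7 higher and 8 lower of 15 tested. Runx2, the master regulator of the lineage, was at 8.06, 6.89 and 9.46 FPKM against 8.86, 9.44 and 6.49 (0.05 ± 0.20) and overlapped. Spp1, the mineral-binding protein osteopontin, was at 1705, 2321 and 1446 against 658, 3609 and 731. Collagen replicate 2 was thus above all PLLA/ZnO libraries and the other 2 were below them (-0.13 ± 0.53). Vdr, the vitamin D receptor, was at 13.1, 8.35 and 13.8 against 7.64, 6.02 and 5.50 (-0.84 ± 0.23). Dmp1, an osteocyte matrix protein, was at 0.470, 0.308 and 0.848 against 0.721, 2.46 and 0.931 (1.34 ± 0.48). Among surface markers of mesenchymal cells Ly6a, also called Sca-1, was at 87.1, 89.3 and 88.8 against 18.6, 43.4 and 39.9 (-1.36 ± 0.31, adjusted p = 0.0894).

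Glycolysis and hypoxia genes were lower in 25 of 31 cases (45% of all genes), with a median of -0.18. An unadjusted p under 0.05 was found for 7 lower and 0 higher (5.17% and 7.77% of all genes). Besides Pdk1, the phosphofructokinase Pfkp was at 9.34, 9.58 and 13.3 FPKM against 6.76, 6.84 and 7.08 (-0.61 ± 0.14). The mitophagy receptor Bnip3 was at 50.7, 71.6 and 86.9 against 30.2, 46.0 and 51.3, and overlapped at the edge (-0.69 ± 0.23). The list median was -0.56 in the fit with replicate 2 alone and -0.14 without replicate 2. With ultrasound 25 of the 31 were higher (50.4% of all genes), with a median of 0.18. At an unadjusted p under 0.05 there were 2 higher and 0 lower (6.92% and 2.51% of all genes). In the mean of both contrasts 17 were higher and 14 lower. Of 34 nuclear oxidative phosphorylation genes, 20 were lower (45% of all genes) and 5 of these had an unadjusted p under 0.05 (5.17% of all genes, lower). Without replicate 2, 25 of the 34 were higher (median 0.12), and with replicate 2 alone 33 were lower (median -0.61). Sdha, a subunit of complex II, was at 54.7, 56.3 and 53.4 against 36.0, 45.1 and 33.7 (-0.49 ± 0.14). For zinc handling, 10 of 17 genes were higher, close to the 55% of all genes, and 1 had an unadjusted p under 0.05 (7.77% of all genes, higher). The metallothionein Mt1 was at 119, 143 and 143 against 114, 186 and 231 (0.42 ± 0.28), and both membranes contain zinc oxide. Other lists had few members with a low p. Over all genes 55% were higher, and 7.77% were higher at an unadjusted p under 0.05. Of 34 cell cycle genes 24 were higher with 2 at an unadjusted p under 0.05, 13 of 21 cholesterol synthesis genes were higher with 1, and 14 of 31 antioxidant genes were higher with 2. With replicate 2 alone these lists had 13, 2 and 9 higher members, against 24, 15 and 16 without it. Contractile actin genes had 16 of 21 higher with all 3 libraries (55% of all genes). Without replicate 2, 18 were higher and 5 were called, all higher (5.5% of all genes). With replicate 2 alone 17 were lower (median -0.41). Of 38 cytosolic ribosomal protein genes 20 were higher and 18 lower, and all 4 with an unadjusted p under 0.05 were lower (5.17% of all genes, lower). With replicate 2 alone all 38 were lower, with a median of -0.88. Without replicate 2, 32 were higher, with a median of 0.30 and 0 called (8.7% of all genes). Mitochondrial genome transcripts made up 4.54% of the counts in collagen replicate 2 and 2.16% and 1.83% in replicates 1 and 3. On PLLA/ZnO they made up 2.50%, 3.43% and 2.64%. All 13 mitochondrial genome genes were higher with replicate 2 alone (median 0.74), and 9 of 13 were lower without it (median -0.33). Their part in these shifts was not tested.

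**Figure D4:**
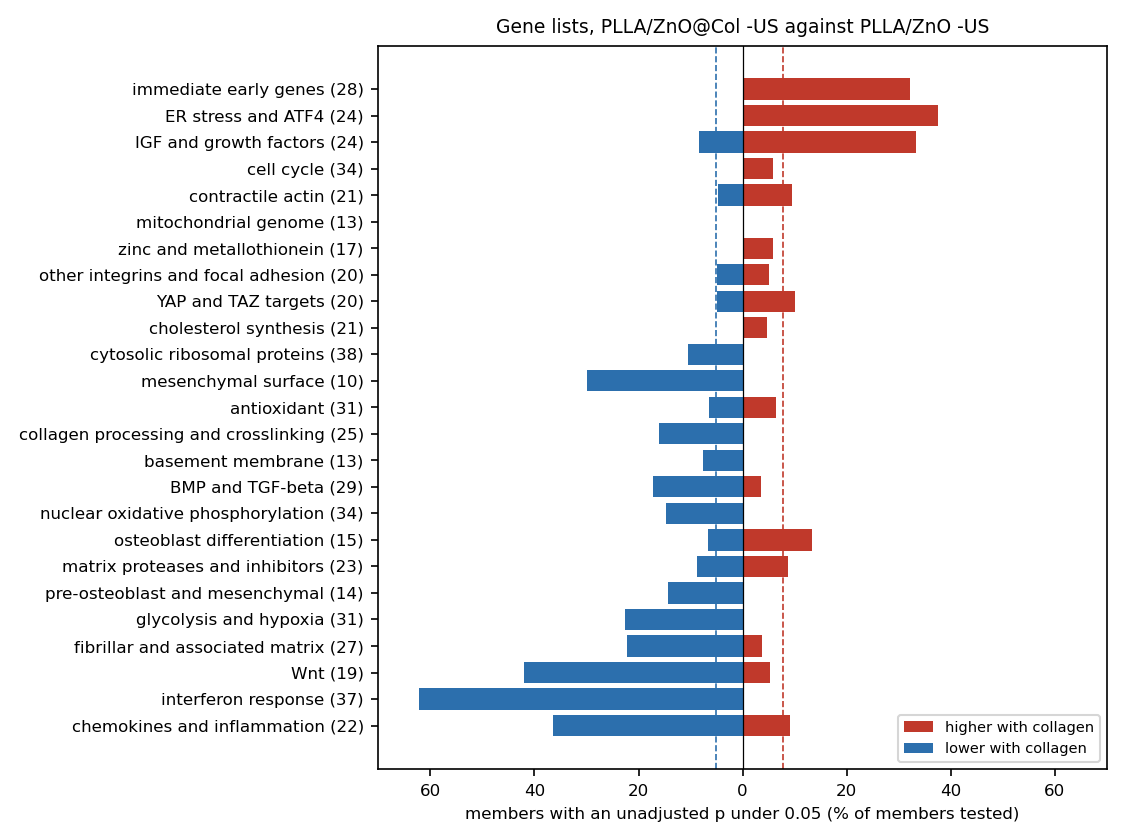
Bars give the share of tested list members (number in parentheses) with an unadjusted p under 0.05, higher on collagen to the right in red and lower to the left in blue, for lists with at least 10 tested members in order of median log2 fold change. Dashed lines are the shares over all genes tested, 7.77% higher and 5.17% lower; the interferon response bar (23 of 37) is the longest.

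The same membranes with daily ultrasound supply libraries that the first comparison does not use. PLLA/ZnO@Col +US against PLLA/ZnO +US also called 0 of 11936 genes (0%), with a smallest adjusted p of 0.339 in edgeR, 1125 genes (9.43%) at an unadjusted p under 0.05 and 47 genes called by DESeq2. The difference between the 2 collagen contrasts called 0 genes (0%) with a smallest adjusted p of 0.999 and 263 genes (2.2%) at an unadjusted p under 0.05 in edgeR with all libraries. Without the 3 libraries with few Y-linked transcripts 13 genes were called for that difference (5 positive and 8 negative), and limma voom with sample weights called 3677. Direction was the same in both for 69.5% of all genes and for 1393 of the 1544 genes (90.2%) at an unadjusted p under 0.05 without ultrasound. Each contrast, however, holds at least 1 collagen library with few Y-linked transcripts. Leaving out PLLA/ZnO@Col +US replicate 1, the shares were 61.9% and 76.1%. Leaving out all 3 such libraries, they were 46.2% of all genes and 59.6% of the 2167 genes then at an unadjusted p under 0.05. Leaving out all 3 also left 1 collagen library without ultrasound. A part of those libraries in the common direction and the loss of replicates cannot be told apart. The groups with ultrasound also differed in their mitochondrial share of counts. It was 2.27%, 1.58% and 1.77% on PLLA/ZnO@Col +US and 3.35%, 3.37% and 1.57% on PLLA/ZnO +US. The part of this difference in the contrast with ultrasound was not tested. Of the leading genes, 24 of 24 had the same sign with all libraries and 23 of 24 after either omission. Their choice required every collagen library without ultrasound, replicate 2 included, to lie outside the PLLA/ZnO range. Their sign without ultrasound was therefore nearly fixed under either omission.

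Cyp1a1 was at 3.20, 3.97 and 5.08 FPKM on PLLA/ZnO +US and 14.4, 11.4 and 7.35 on PLLA/ZnO@Col +US (1.47 ± 0.34). Ifit3 was at 5.71, 7.87 and 3.88 against 2.02, 2.59 and 3.98 (-0.99 ± 0.39). Immediate early genes were all positive with ultrasound, 28 of 28 (50.4% of all genes) with a median of 0.53 and 16 at an unadjusted p under 0.05 (6.92% of all genes, higher), and Egr1 was at 32.6, 31.3 and 35.2 against 70.9, 80.7 and 93.5. The interferon list had 28 of 37 lower (49.6% of all genes), a median of -0.29 and 5 lower at an unadjusted p under 0.05 (2.51% of all genes, lower). Without PLLA/ZnO@Col +US replicate 1 it had 25 lower and a median of -0.17. Its members had the same sign in both contrasts for 30 of 37 with all libraries, 25 without that library and 23 without all 3 libraries with few Y-linked transcripts. Single genes varied in how the contrast with ultrasound compared with the one without, and in edgeR with all libraries none of these differences passed the adjusted threshold. Cxcl12 was at 39.0, 43.6 and 48.03 against 27.6, 44.5 and 51.5 (-0.05 ± 0.17), and Hmga2 at 71.1, 81.1 and 71.6 against 111, 73.6 and 76.0 (0.26 ± 0.23). The fold change was larger in size with ultrasound for Ccn1 (1.46 ± 0.29), Postn (-1.37 ± 0.53) and Spp1 (-0.90 ± 0.53), and for Mmp13 it was -1.97 ± 1.14 with ultrasound and 1.11 without. These 4 were picked with their values known. The mean of the 2 collagen contrasts, an alternative added after seeing the data, called 328 genes (2.75%), of which 236 were higher (1.98%) and 92 lower (0.771%) in edgeR. These included 23 of the 24 leading genes, 11 interferon response genes, all lower, and 4 immediate early genes, all higher. The mean contains the contrast by which the 24 genes were chosen, so their count was nearly fixed and is no separate test. It also contains all 3 libraries with few Y-linked transcripts, and the mean was not fitted without them.

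**Figure D5:**
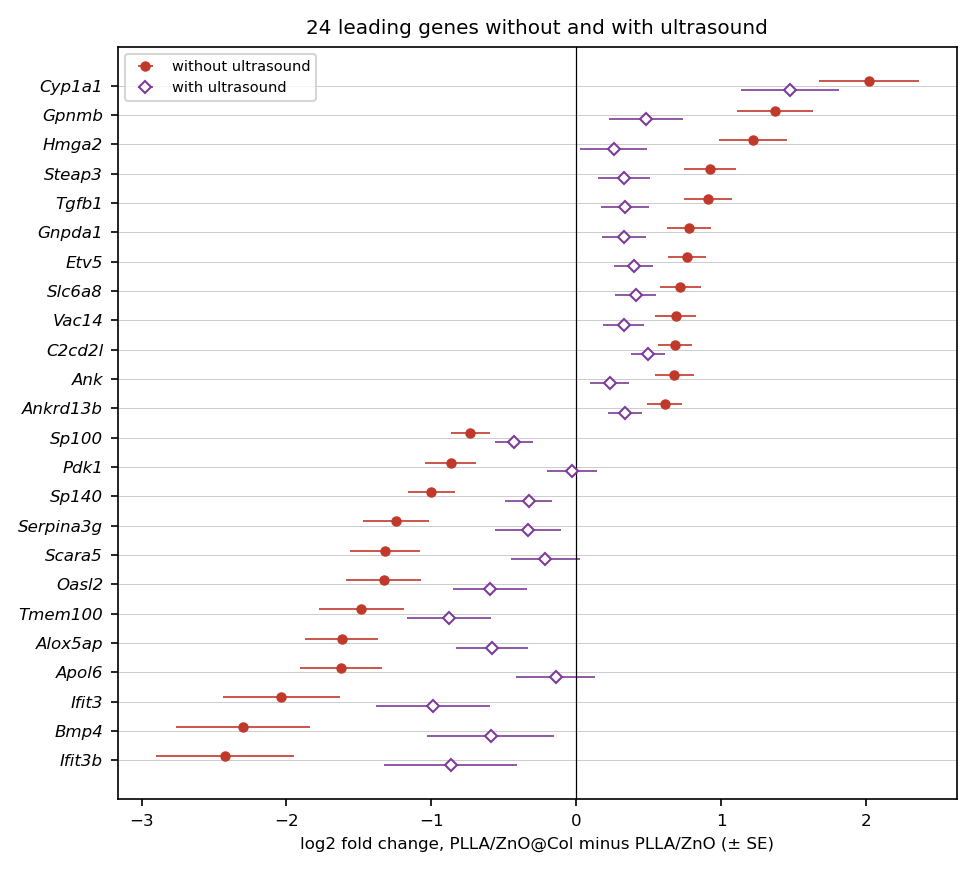
Log2 fold changes of PLLA/ZnO@Col against PLLA/ZnO with their standard errors for the 24 leading genes, without ultrasound (filled red circles) and with ultrasound (open purple diamonds). All 24 diamonds are on the same side of 0 as their circles and nearer to 0; the genes were chosen on the contrast without ultrasound.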

How the data were processed

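Libraries were made from polyadenylated RNA for Illumina sequencing, per the labels' protocols. The submitters' processing notes name cutadapt 1.9, FastQC and build GRCm38. Aligner, counter and strand setting: not given in the sources used here. Raw counts per gene and FPKM were deposited by the authors, as named in the file headers, for 30452 genes and 18 libraries. Genes with at least 1 FPKM in at least 3 libraries (11936) were tested on counts in 1 fit with a mean per group (12 residual degrees of freedom) in edgeR 4.0.16: TMM, quasi-likelihood F-test, two-sided, Benjamini-Hochberg adjustment over all genes tested, threshold 0.05. Fold changes are log2 with SE taken as the fold change over the root of F; values per library are the deposited FPKM. DESeq2 1.42.0 and limma 3.58.1 ran as alternatives, in R 4.3.3. The fit was tested on simulated data in which each gene had the same spread in all groups. Of 50 genes changed at each size it called 4 at 1.5-fold, 21 at 2-fold, 36 at 3-fold and 40 at 4-fold. It also called 4 unchanged genes. A count of 0 genes called therefore does not show that no gene differed. Named genes were, per direction, 12 genes whose groups did not overlap and whose higher group averaged 2 FPKM or more. The called ones came first, filled by unadjusted p under 0.01, and clone, Rik, Gm and pseudogene symbols were left out. Up to 3 genes of each list by smallest p under 0.05 and a fixed panel were added. The lists, the members and the comparison were chosen with earlier results of these data known. Leave-one-out with 1 library left in a group assumes that it varies like the other groups. No 2 libraries of the same group were duplicates by a chi-square comparison of their counts. Pairs from different groups were not compared in this way. Replicate numbers did not pair the samples. Values of a few genes are not reported here, and 1 tested list member is not drawn.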

Additional observations from a re-analysis of the deposited data

How the results depend on the processing

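For collagen without ultrasound, 0 genes were called in edgeR, with DESeq2 size factors, with only the compared libraries, under 3 other filters, with limma on log2(FPKM + 1) and without any PLLA/ZnO -US replicate. The count was 407 with DESeq2, 1 with limma on log2(FPKM + 0.1), 3982 with voom sample weights, 166 without the 3 libraries with few Y-linked reads (11 with 4 groups in the fit, added after seeing the data) and 328 for the mean of both contrasts; leaving out single replicates gave 0 to 1039. With ultrasound, DESeq2 called 47 and voom 6086. The difference gave 3677 with voom, 13 without the few-Y libraries and 0 to 1 without single replicates. With the replicate block 0 genes were called at a smallest adjusted p of 0.0741; same-numbered deviations correlated at 0.12, -0.08 and -0.29. Genes not overlapping numbered 1360, 4998 without collagen replicate 2 and 8219 without replicates 1 and 3. Negative list medians numbered 12 to 22 of 28 lists, 15 with all libraries. Of 1255 single-gene values, 33 reversed in sign. Mmp13 was -0.25 and -1.21 with limma at the 2 pseudocounts and -3.78 with voom. Psmb8 was -0.21, -0.33 and -0.11 in the same fits, -0.027 with the replicate block and -1.91 without the few-Y libraries; Ifi35 was -0.11, -0.13 and -0.30 in the same limma fits and -0.98 without the few-Y libraries. Without those libraries Ddr1 was -0.070, Ddr2 0.50, Col1a2 -0.84, Spp1 0.96, Shmt2 -0.041 and Actg2 -1.08; Col1a1 was 0.030 with voom. Leaving out single libraries gave ranges of -3.69 to 1.69 for Mmp13, -0.69 to 0.57 for Psmb8, -0.56 to 0.45 for Ifi35, -0.091 to 0.17 for Ddr1, -0.70 to 0.15 for Ddr2, -0.41 to 0.0064 for Col1a1, -0.059 to 0.47 for Col1a2, -1.32 to 0.24 for Spp1 and -0.065 to 0.20 for Runx2. The cause was not tested. The common biological coefficient of variation was 28.0%.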
